A study of Rattus norvegicus with 12 samples.

Results

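Ion channels and neurotransmitter receptors are the membrane proteins by which neurons fire and signal to each other. The long noncoding RNA (lncRNA) table of fetal rat spinal cord was searched for transcripts whose locus name starts with the stem of such a gene family. The stems were those of potassium (Kcn), sodium (Scn), calcium (Cacn), HCN (Hcn), TRP (Trpc, Trpm, Trpv) and chloride (Clcn) channels, and of receptors for glutamate (Gria, Grin, Grik, Grm), GABA (Gabr), glycine (Glra, Glrb), acetylcholine (Chrn, Chrm) and serotonin (Htr). This took 80 of 22591 transcripts, at 60 loci on 20 chromosomes. Names are written here as the locus and the letter of the transcript, so that Gria2.c is the transcript c of Gria2, without the release tag and the word "unspliced" that some carry in the deposited table.

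The tissue was lumbosacral spinal cord of Wistar rats on embryonic day 19, with 3 libraries from normal fetuses and 3 from fetuses with anorectal malformations (ARM) induced by ethylenethiourea (ETU), a teratogen that suppresses the thyroid. The miRNA libraries of the same study were not used. Every ARM sample was exposed to ETU and no exposed sample lacked ARM, so the exposure and the malformation cannot be told apart. Nothing in the labels says whether replicates were separate fetuses, pools or litters, so the p-values cover the spread between libraries, which may be technical.

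In a neuron, voltage-gated sodium channels carry the upstroke of the action potential, potassium channels end it and set the resting potential, and calcium channels at the terminal trigger transmitter release. AMPA, NMDA and kainate receptors answer glutamate, and GABA-A and glycine receptors answer the inhibitory transmitters of the cord. HCN channels carry a current that opens on hyperpolarisation, and TRP channels are a mixed family of cation channels opened by lipids, heat, touch or other stimuli. Spinal motor and sensory circuits acquire these proteins before and after birth.

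The locus name does not make a transcript the messenger RNA of the gene. All 80 names came from AceView, a catalogue of transcripts assembled from cDNA. Of these names 31 (38.75%) carried the tag "unspliced", against 49.72% of all AceView-named transcripts in the table. Their median length was 566.5 bases, against 647. The strand used in counting is not given in the sources used here. Reads of these transcripts cannot be told apart from reads of the gene's own mRNA. Of the 80, 16 (20%) overlap another listed transcript, against 31.85% of all transcripts in the table. Of the 60 locus names, 55 are current rat symbols in RefSeq and 5 are older synonyms, among them Scn2a1 for Scn2a, Kcne1l for Kcne5 and Kcnq5l for Kcnq5. The names Htra2, Grina, Grinl1a and Trpc4ap share a stem with these families but belong to no channel or receptor. Their 4 transcripts are described apart from the families but are counted in all totals of the 80, and 2 of them were tested.

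The 6 libraries held 3285614 to 3865088 counts, and 3 counts, the limit that a count of 0 leaves, were worth 0.776 to 0.913 CPM (counts scaled to the library total; counting error only). Neuronal marker loci were present, with transcripts for 5 of 9 listed genes (Map2, Elavl3, Elavl4, Syt1 and Nefl) that summed to 268 to 319 CPM in normal and 336 to 368 CPM in ARM libraries. None of the 6 motor neuron genes listed had a transcript in the table. Microglial loci (3 of 5 genes) summed to 2.33 to 6.39 CPM, skeletal muscle loci (1 of 8) to at most 1.22 CPM, and erythroid loci (1 of 5) to 1.34 to 8.16 CPM. Astrocyte or radial glia loci (3 of 7) summed to 100 to 114 CPM, oligodendrocyte loci (4 of 8) to 30.5 to 42.0 CPM, endothelial loci (1 of 4) to 23.6 to 32.9 CPM and cartilage, bone or meningeal loci (3 of 6) to 9.57 to 74.9 CPM.

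The first question is which families are represented, and how strongly. Together the 80 transcripts took 0.161%, 0.168% and 0.146% of the counts of the normal libraries and 0.206%, 0.164% and 0.169% of those of the ARM libraries. The means were 0.158% ± 0.0113 and 0.179% ± 0.0229 (SD, n = 3 each), or 0.155% and 0.176% without the 4 transcripts of no channel or receptor. The high value of ARM library 1 went with 1 transcript, Scn3b.c. Without it the means were 0.155% ± 0.0116 and 0.164% ± 0.00441. Potassium channel loci gave the most transcripts (23 at 22 loci), followed by calcium channel (18 at 8 loci), sodium channel (10 at 7 loci) and TRP channel loci (10 at 7 loci). Receptors gave few: 3 transcripts at AMPA receptor loci, 2 at NMDA, 1 at kainate, 2 at GABA-A and 1 at serotonin receptor loci. The table had no transcript named for a metabotropic glutamate, glycine, nicotinic or muscarinic receptor.

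**Figure D1:**
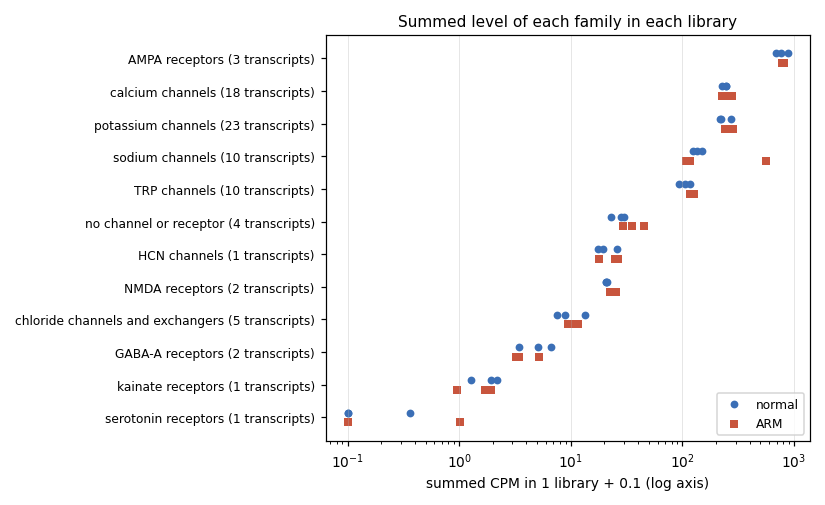
Summed level of the transcripts of each family, in CPM plus 0.1 on a log axis, with 1 circle per normal and 1 square per ARM library and no error bars. The 3 AMPA receptor transcripts sum to 684 to 887 CPM in every library, above any other family, and 1 ARM library stands apart at 564 CPM among the sodium channels.

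The 3 AMPA receptor transcripts summed to 778 ± 102 CPM in normal and 795 ± 19.5 CPM in ARM libraries. The 23 potassium channel transcripts summed to 237 ± 29.1 and 260 ± 22.6 CPM, and the 18 calcium channel transcripts to 239 ± 12.2 and 254 ± 25.3 CPM. For each of these 3 families the normal and ARM libraries overlapped. The 10 TRP channel transcripts summed to 93.6, 105 and 116.8 CPM in normal and 128, 116.6 and 127 CPM in ARM libraries. These groups also overlapped, by a small margin, and the sums were not tested.

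Of the 80 transcripts, 50 had enough counts for the test between ARM and normal cord, a share of 62.5% against 58.27% of all AceView-named transcripts. The other 30 averaged 0.5 to 9.5 counts per library, and their highest single count was 35. None of the 30 was at 0 in all libraries of a group with counts in the other. By family, 16 of 18 calcium channel transcripts were testable but only 11 of 23 potassium channel, 1 of 5 chloride channel and neither the kainate nor the serotonin receptor transcript. The serotonin receptor transcript Htr3b.b, named for a subunit of the serotonin-gated cation channel, had 0, 0 and 1 counts in the normal libraries against 3, 0 and 0 in the ARM libraries. The kainate receptor transcript Grik2.b, named for the GluK2 subunit, had 4, 8 and 7 counts in the normal libraries against 6, 3 and 6 in the ARM libraries. Differences at these loci were not detectable at this depth.

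The second question is whether the level of these transcripts differed between ARM and normal cord. None of the 50 passed the threshold of an adjusted p of at most 0.05 (edgeR's quasi-likelihood test with Benjamini-Hochberg adjustment over 13343 transcripts). Among all tested transcripts 16 passed, or 0.12%. At an unadjusted p under 0.05 there were 3 of the 50 (6%), against a background of 5.98% of all tested transcripts. Among the 3 is Trpc4ap.c, which is no channel or receptor. DESeq2, which filters differently, called 0 of the 62 members to which it gave an adjusted p, where it called 0.442% over the table. It put 3 of 77 members at an unadjusted p under 0.05, against 3.22%. limma-voom called 0 of the 50, against 0.12%, and put 5 of 50 at an unadjusted p under 0.05, against 6.09%. The smallest adjusted p of a member was 0.832 with edgeR, 0.379 with DESeq2 and 0.808 with limma-voom.

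The estimates were spread about 0. The median log2 fold change, ARM over normal, was 0.06 for the 50 transcripts and 0.01 for all tested transcripts. Higher estimates in ARM numbered 30 of 50 (60%), where the whole table had 51.5%. A log2 fold change of 1 or more in size was estimated for 3 of the 50, or 6%, against 3.72% of the table. For 33 of 50 (66%) the 95% interval lay within a 2-fold change in either direction, against 59.68% of all tested transcripts. At the others the interval did not exclude a larger difference.

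**Figure D2:**
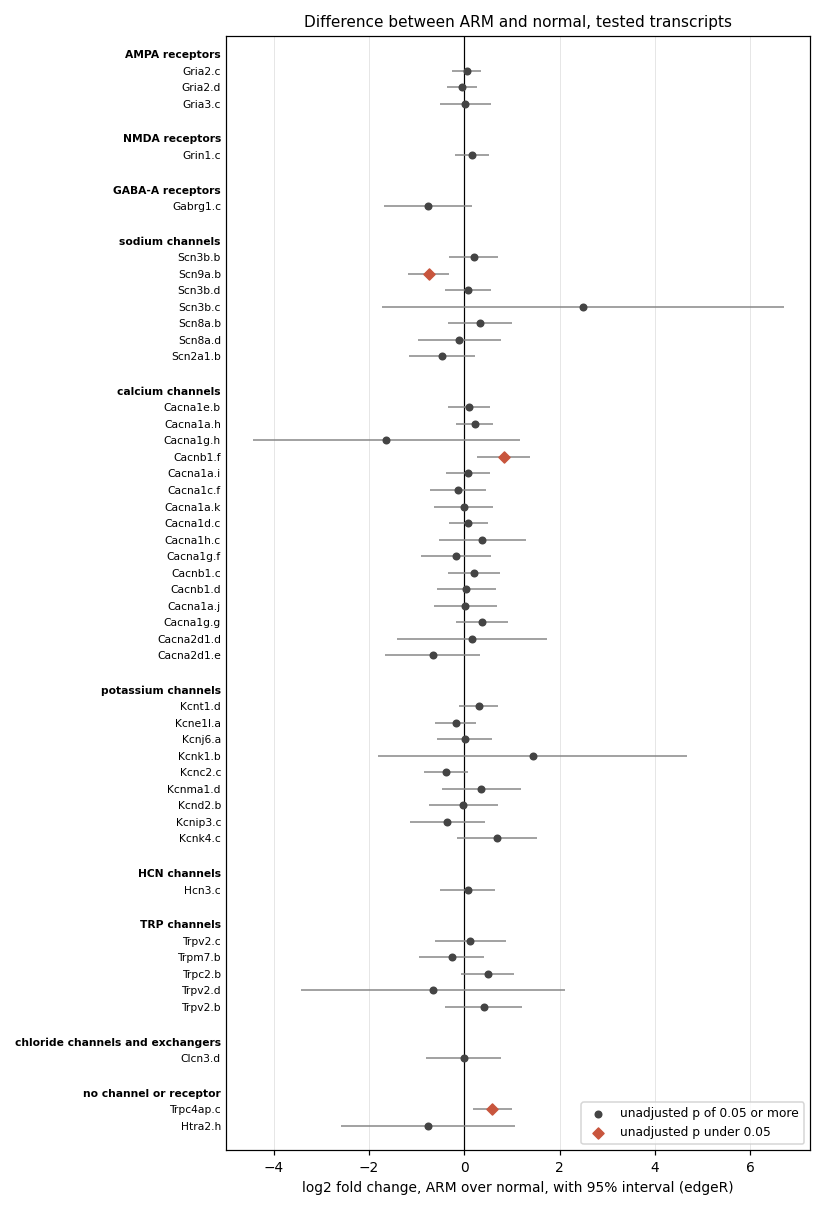
Log2 fold change of the tested transcripts, a few left out, ARM over normal (3 libraries each), with bars for the 95% interval from edgeR and transcripts grouped by family. Most points lie near 0, the 3 diamonds mark unadjusted p under 0.05 (Scn9a.b, Cacnb1.f, Trpc4ap.c), and 4 transcripts with very wide bars are those whose counts differed most within a group.

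A simpler reading is whether all 3 libraries of a group lay on one side of the other group, in CPM. These CPM are over library totals, without the TMM scaling factors of the fitted estimates. The factors were 0.974 to 0.997 in normal and 1.01 to 1.02 in ARM libraries. CPM therefore stand slightly higher in ARM, for every transcript, than the scaled values of the fit. This held for 7 of 50, against 12.5% of all tested transcripts. In 6 of the 50 every ARM library was above every normal library, where the table had 9.18%, and in 1 every ARM library was below, where the table had 3.28%. The 6 were Cacnb1.f, Kcnt1.d, Grin1.c, Trpc2.b, Trpv2.b and Trpc4ap.c, and the 1 was Scn9a.b. Shares this close to those of the table are no result about channels and receptors as a group. The summed neuronal marker loci moved the same way as the 6, with all ARM libraries above all normal ones. Of the 6 tested transcripts on the neuronal list, 4 had higher estimates and 2 lower. The most abundant of them, Elavl3.b, averaged 133 CPM in normal and 171 CPM in ARM libraries. The part of the marker loci in the channel and receptor values was not tested.

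**Figure D3:**
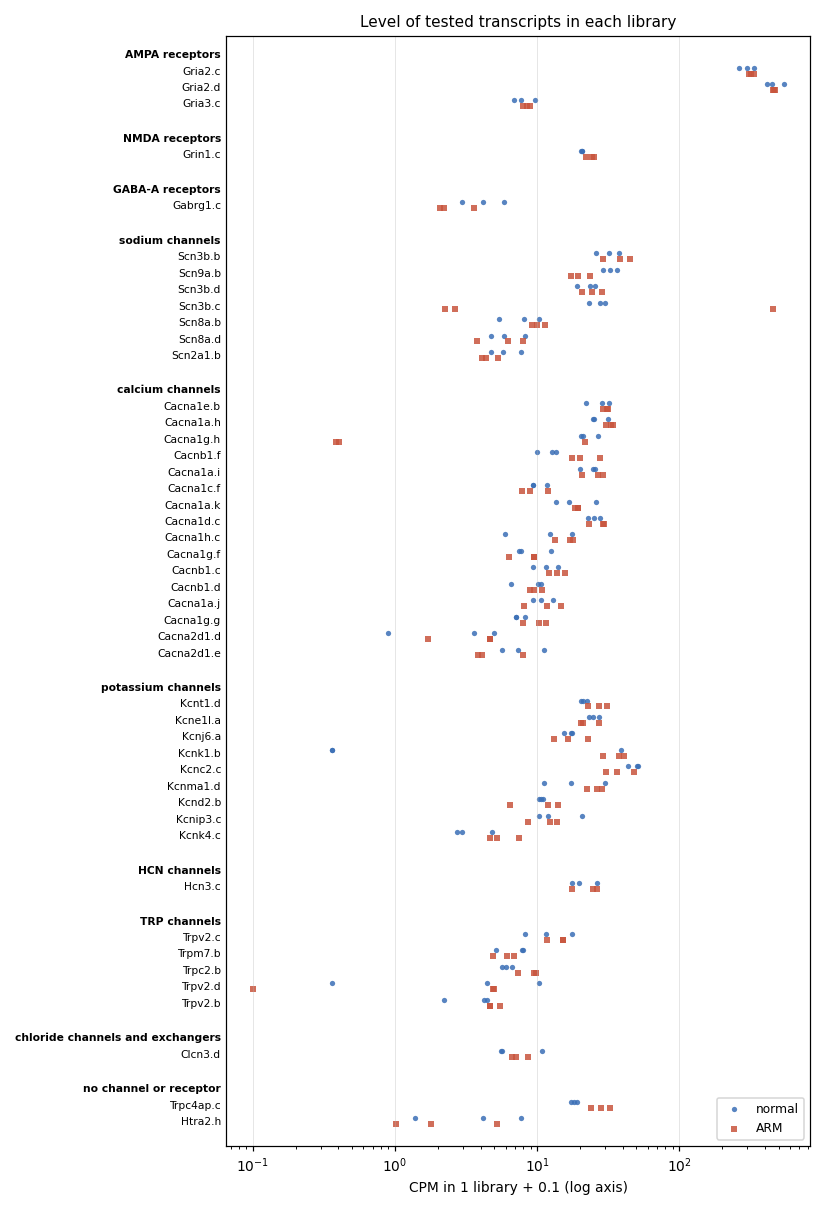
Level of the tested transcripts, a few left out, in each library, in CPM plus 0.1 on a log axis, grouped by family and ordered within a family by level per kilobase, with circles for normal and squares for ARM libraries. Circles and squares interleave for most transcripts, and the Gria2 transcripts stand to the right of all others apart from Scn3b.c in 1 ARM library.

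Among the receptors, Gria2 stood out by its level. Gria2 encodes GluA2, the AMPA receptor subunit whose edited form keeps the receptor impermeable to calcium. Both of its transcripts lie end to end on chromosome 2, Gria2.d at 179587442 to 179589810 and Gria2.c at 179589864 to 179591079 in the deposited coordinates, for which no build is stated. Gria2.c had 1033, 1303 and 1005 counts in the normal libraries against 1018, 1176 and 1188 in the ARM libraries. Gria2.d had 1547, 2099 and 1565 counts in the normal libraries against 1503, 1656 and 1740 in the ARM libraries. Groups overlapped for both.

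Per length, Gria2.c averaged 256 CPM per kilobase and Gria2.d 236, the highest levels of the 80, and the next, Cacna1e.b, averaged 80.2. Their log2 fold changes were 0.05 (SE 0.13) and -0.06 (SE 0.13), and both signs turned when 1 normal library was left out. The 95% interval was -0.26 to 0.35 for Gria2.c and -0.37 to 0.25 for Gria2.d. The split between both transcripts was steady, with Gria2.c at 38.3% to 41.5% of the counts of the locus in all 6 libraries. Gria3.c, named for the AMPA receptor subunit GluA3, had 33, 26 and 29 counts in the normal libraries against 26, 31 and 31 in the ARM libraries (log2 fold change 0.02, SE 0.22).

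Grin1.c, named for the GluN1 subunit that every NMDA receptor contains, was at 20.4, 20.7 and 20.5 CPM in normal and 24.96, 21.9 and 24.2 CPM in ARM libraries. The ARM libraries were above the normal ones, by a small margin (log2 fold change 0.16, SE 0.15, edgeR adjusted p = 0.916). Gabrg1.c, named for a gamma subunit of the GABA-A receptor, had 14, 11 and 22 counts in the normal libraries against 7, 7 and 13 in the ARM libraries. These groups overlapped, and the estimate of -0.77 (SE 0.39, edgeR adjusted p = 0.837) rested on few counts. The second transcript of this locus, Gabrg1.b, was too low to test, with 2 to 3 counts in normal and 4 to 6 in ARM libraries.

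Sodium channel loci held the transcript with the smallest p of the 80. Scn9a encodes Nav1.7, a channel of sensory and sympathetic neurons best known for its role in pain. Scn9a.b, at 52606370 to 52625568 on chromosome 3, had 125, 125 and 110 counts in the normal libraries against 63, 61 and 87 in the ARM libraries. This is 36.5, 32.3 and 28.9 CPM against 19.2, 17.3 and 23.4 CPM, and the groups did not overlap. Means were 32.6 ± 3.76 and 19.97 ± 3.09 CPM (log2 fold change -0.75, SE 0.18, 95% interval -1.18 to -0.32). The unadjusted p was 0.00445, and the edgeR adjusted p was 0.832, far from the threshold. In tissue measured in bulk, fewer cells of a type and less RNA per cell cannot be told apart.

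Scn9a marks sensory ganglion cells, which can come along when cord is dissected, and it was itself on the list of 7 ganglion genes. Of the others, Pou4f1 and Scn10a had transcripts while Prph, Trpv1 and Calca were among those with none. Without Scn9a the list summed to 383, 457 and 514 CPM in normal and 511, 574 and 537 CPM in ARM libraries. These sums overlapped between the groups and came almost wholly from Pou4f1, a transcription factor of sensory neurons that some cord neurons also express. The part of ganglion cells in the Scn9a.b values was not tested. The minor transcript Pou4f1.a, at means of 3.08 CPM in normal and 53.5 CPM in ARM libraries, was called higher in ARM (edgeR adjusted p = 0.0281). The main transcript Pou4f1.b, which overlaps it, was not called. Its means were 447 ± 65.0 CPM in normal and 483 ± 21.4 CPM in ARM libraries (log2 fold change 0.06, SE 0.14, edgeR adjusted p = 0.960). Scn10a.a, named for the sensory neuron channel Nav1.8, had 0, 12 and 0 counts in the normal libraries against 4, 35 and 4 in the ARM libraries and was too low to test.

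The other sodium channel loci of the central nervous system showed overlapping groups. Scn8a, the channel of axon initial segments and nodes, had one transcript at 35, 31 and 20 counts in the normal libraries against 37, 32 and 37 in the ARM libraries (Scn8a.b, log2 fold change 0.32, SE 0.28) and another at -0.11 (Scn8a.d, SE 0.36). Scn2a1.b, named for Nav1.2, had 16, 22 and 29 counts in the normal libraries against 17, 15 and 15 in the ARM libraries (-0.47, SE 0.29). Scn1a.d and Scnn1b.b, the latter named for a subunit of the epithelial sodium channel, were too low to test.

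Scn3b, which encodes an auxiliary beta subunit, had 3 transcripts, and here 1 library decided the values. Scn3b.c had 95, 90 and 113 counts in the normal libraries against 1510, 9 and 8 in the ARM libraries. ARM library 1 was far above every other library and the other ARM libraries were far below the normal ones. The log2 fold change of 2.48 (SE 1.77, 95% interval -1.73 to 6.70) has no stable direction. It was -3.55 without ARM library 1, with an edgeR adjusted p of 0.0146, and -1.10 with limma-voom.

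The neighbours did not share this pattern. Scn3b.b had 129, 124 and 98 counts in the normal libraries against 126, 102 and 168 in the ARM libraries (0.19, SE 0.22), and Scn3b.d had 80, 98 and 72 against 68, 101 and 90 (0.07, SE 0.20). Scn3b.c thus made up 28.9% to 39.9% of the counts of the locus in normal libraries and 88.6%, 4.25% and 3.01% in ARM libraries 1, 2 and 3. It lies at 44155846 to 44159016 on chromosome 8, apart from Scn3b.d at 44136408 to 44145456 and Scn3b.b at 44147169 to 44147631.

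**Figure D4:**
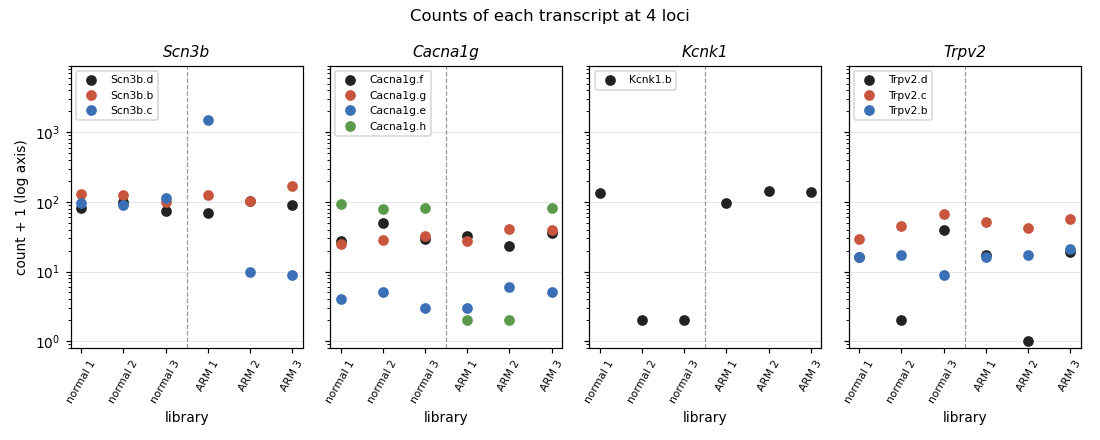
Counts plus 1 on a log axis for each transcript of Scn3b, Cacna1g, Kcnk1 and Trpv2 in each of the 6 libraries, with a dashed line between the normal and the ARM libraries; points are single libraries and library numbers carry no order. One transcript per locus (Scn3b.c, Cacna1g.h, Kcnk1.b, Trpv2.d) drops to near 0 or jumps in some libraries, while the other transcripts of Scn3b, Cacna1g and Trpv2 stay within a narrow band.

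Cacna1g, a low-threshold T-type calcium channel, gave the same kind of picture. Cacna1g.h had 91, 78 and 80 counts in the normal libraries against 1, 1 and 80 in the ARM libraries. It was nearly absent from ARM libraries 1 and 2 and at the normal level in ARM library 3. Its log2 fold change was -1.64 (SE 1.18, edgeR adjusted p = 0.885), and without ARM library 3 it was -6.14 with an adjusted p of 0.00792. Cacna1g.g, at 24, 27 and 31 counts in the normal libraries against 26, 40 and 38 in the ARM libraries (0.37, SE 0.23), and Cacna1g.f, at 26, 48 and 28 against 31, 22 and 35 (-0.18, SE 0.31), did not fall to near 0 in any library. Both overlap each other and transcripts of another locus name, and reads may be shared between them. Summed over 4 transcripts, the locus was at -0.65 (SE 0.33, edgeR adjusted p = 0.824).

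Two-pore potassium channels set the resting potential, and Kcnk1 (TWIK-1) is one of them. Kcnk1.b had 133, 1 and 1 counts in the normal libraries against 95, 144 and 140 in the ARM libraries. The difference therefore lay within the normal group, where 1 library was at the level of the ARM libraries (log2 fold change 1.43, SE 1.36, edgeR adjusted p = 0.912). Without that normal library it was 6.85 with an adjusted p of 0.00513. Trpv2.d, named for a TRP channel found in sensory and other cells, had 15, 1 and 39 counts in the normal libraries against 16, 0 and 18 in the ARM libraries (-0.66, SE 1.16). Its sign turned without the normal library at 39 (0.47). It spans nearly the same stretch as Trpv2.c, which had 28, 44 and 67 counts in the normal libraries against 50, 41 and 56 in the ARM libraries.

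These are the 4 of the 50 transcripts (8%) whose highest library was at least 10 times the lowest within a group, with 1 count added, as against 585 of 13343 over all tested transcripts (4.38%). Kcnk1.b and Trpv2.d are named because of these values. None of the 4 separated the groups.

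**Figure D5:**
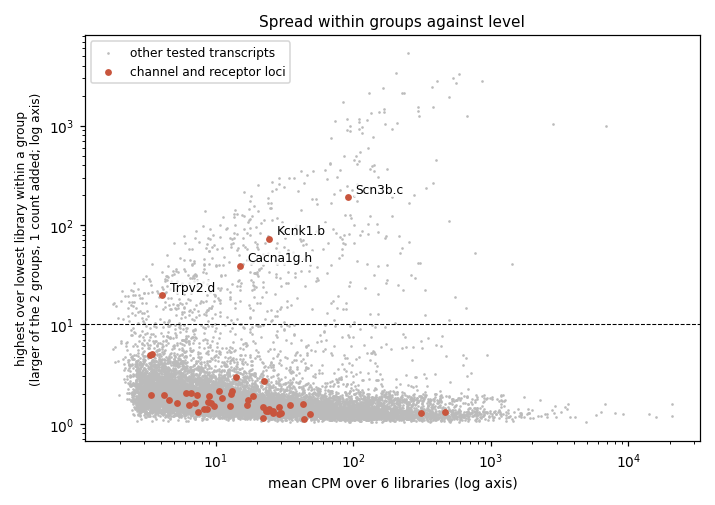
Ratio of the highest to the lowest library within a group, taking the larger of both groups and adding 1 count, against the mean CPM over 6 libraries, both on log axes, with 1 point per tested transcript. The 4 labelled channel transcripts lie above the dashed line at 10, in the cloud of other transcripts above it, and the others lie among the bulk of the table.

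Voltage-gated calcium channels were the family with the most testable transcripts, and 11 of its 16 estimates were higher in ARM, with a median of 0.08. Cacnb1 encodes the beta-1 subunit that brings the pore to the membrane and is a partner of the channel of skeletal muscle. Cacnb1.f, at 85962547 to 85963685 on chromosome 10, had 46, 38 and 48 counts in the normal libraries against 66, 62 and 103 in the ARM libraries. In CPM the normal libraries were at 13.4, 9.83 and 12.6 and the ARM libraries at 20.1, 17.6 and 27.7, without overlap. The log2 fold change was 0.82 (SE 0.24, unadjusted p = 0.0110, edgeR adjusted p = 0.832), the largest of the transcripts whose groups did not overlap. Its neighbours Cacnb1.c (0.21, SE 0.23) and Cacnb1.d (0.04, SE 0.26) overlapped between groups, and the locus summed to 0.41 (SE 0.15).

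The pore subunits Cacna1e and Cacna1a were close to level. Cacna1e.b, named for the R-type channel, had 98, 124 and 83 counts in the normal libraries against 103, 102 and 115 in the ARM libraries (0.10, SE 0.18), a sign that turned without 1 normal library. Cacna1a encodes the P/Q-type channel that drives transmitter release at many synapses. Its 5 transcripts summed to 305, 292 and 298 counts in the normal libraries against 303, 287 and 355 in the ARM libraries (0.08, SE 0.12). The most abundant of them per length, Cacna1a.h at 59.6 CPM per kilobase, had 84, 97 and 120 against 100, 117 and 126 counts (0.22, SE 0.16).

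L-type and auxiliary loci gave estimates of either sign. Cacna1d.c and Cacna1c.f, named for L-type channels, were at 0.08 (SE 0.17) and -0.14 (SE 0.25), and Cacna1h.c, of the T-type, at 0.38 (SE 0.39). Cacna2d1 encodes the subunit to which gabapentin binds. Cacna2d1.e had 25, 43 and 21 counts in the normal libraries against 26, 14 and 14 in the ARM libraries (-0.67, SE 0.42), and Cacna2d1.d was at 0.16 (SE 0.66). Groups overlapped for all of these.

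Potassium channel loci divided evenly, with 5 higher and 6 lower estimates and a median of -0.02. Kcnt1.d, named for a sodium-activated channel, was at 22.5, 20.4 and 20.8 CPM in normal and 27.1, 22.7 and 31.2 CPM in ARM libraries. The groups only just separated in CPM over library totals, with an estimate of 0.30 (SE 0.17, edgeR adjusted p = 0.865). The closest libraries, normal 1 and ARM 2, differed by less than their TMM scaling factors did (0.997 and 1.02). With the scaling of the fit these groups do not separate. At 38.6 CPM per kilobase it was the highest of its family, followed by Kcne1l.a at 38.5. Kcne1l.a, named for an accessory subunit, had 85, 90 and 103 counts in the normal libraries against 69, 71 and 101 in the ARM libraries (-0.18, SE 0.18).

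Kcnc2 encodes Kv3.2, a channel of fast-firing neurons. Kcnc2.c had 174, 197 and 166 counts in the normal libraries against 100, 169 and 135 in the ARM libraries, with overlap (-0.39, SE 0.19, edgeR adjusted p = 0.837). Kcnd2.b and Kcnj6.a, named for the A-type channel Kv4.2 and the G-protein-gated channel GIRK2, were at -0.02 (SE 0.30) and 0.00 (SE 0.24).

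Kcnip3.c, named for a calcium-binding partner of Kv4 channels, had 35, 46 and 78 counts in the normal libraries against 45, 43 and 32 in the ARM libraries (-0.36, SE 0.33). The sign turned without the normal library at 78. Kcnk4.c, named for the mechanosensitive two-pore channel TRAAK, had 9, 11 and 18 counts in the normal libraries against 15, 26 and 19 in the ARM libraries (0.68, SE 0.35). Kcnma1.d, named for the large-conductance calcium-activated channel, had 103, 67 and 42 in the normal libraries against 94, 92 and 83 in the ARM libraries (0.36, SE 0.35). The 12 untested potassium channel transcripts included Kcne3.b, which had 2, 0 and 0 counts in the normal libraries against 0, 10 and 6 in the ARM libraries.

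Hcn3.c was the single HCN transcript and among the most abundant per length, at 54.9 CPM per kilobase. It had 60, 101 and 74 counts in the normal libraries against 81, 62 and 98 in the ARM libraries (0.07, SE 0.24), and its sign turned without normal library 1 and without ARM library 3. Clcn3.d, named for an endosomal chloride-proton exchanger, had 37, 21 and 21 counts against 28, 23 and 26 (-0.02, SE 0.33), with a sign that depended on the scaling. The other 4 chloride channel transcripts were too low to test, and Clcn6.d had 1 count in each of the 6 libraries.

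TRP channel loci had 5 higher and 2 lower estimates, with a median of 0.21. Trpc2.b, named for the pheromone-transduction channel of rodents, had 19, 23 and 25 counts in the normal libraries against 31, 34 and 27 in the ARM libraries, or 5.54, 5.95 and 6.58 against 9.44, 9.67 and 7.25 CPM. All ARM libraries were above all normal ones (0.49, SE 0.23, edgeR adjusted p = 0.837). Trpv2.b was at 4.38, 4.14 and 2.11 CPM in normal and 4.57, 4.55 and 5.37 CPM in ARM libraries (0.40, SE 0.34). Its groups were separated by less than the worth of 1 read. Trpm7.b, named for a channel fused to a kinase, was at -0.26 (SE 0.29).

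Of the 4 names that are no channel or receptor, Trpc4ap.c had the third of the 3 small unadjusted p-values. Trpc4ap is an adaptor of a ubiquitin ligase that was found as a partner of TRPC4. Its transcript had 65, 67 and 69 counts in the normal libraries against 78, 99 and 120 in the ARM libraries, or 18.1 ± 0.812 and 28.0 ± 4.25 CPM, without overlap. The log2 fold change was 0.58 (SE 0.17, unadjusted p = 0.0126, edgeR adjusted p = 0.832). It overlaps the transcript Myh7b.a, which had 30, 0 and 52 counts in the normal libraries against 52, 0 and 0 in the ARM libraries, a different pattern. Htra2.h, named for a mitochondrial protease, had 14, 5 and 29 counts in the normal libraries against 3, 6 and 19 in the ARM libraries (-0.77, SE 0.77).

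Since transcripts of a locus can share reads, counts were also summed by locus name. Of the 60 loci 35 were testable, and none passed the threshold with edgeR, against 16 of 11646 loci over the table (0.137%). At an unadjusted p under 0.05 there were 3 of 35, Scn9a (-0.77), Trpc4ap (0.56) and Cacnb1 (0.41), against 5.86% over the table, and the smallest adjusted p was 0.822. Of the 60 loci 48 had a single transcript, whose counts are the same in both fits.

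Channels and receptors work with scaffolds, transporters and release proteins, and 68 transcripts named for such partners, or for channels that the stems do not take, were read from the same fit. Of these 50 were tested and 0 passed, where 0.12% of all tested transcripts did, so a count of 0 says little about the partners. At inhibitory synapse loci 5 of 8 estimates were higher and 3 lower, with Nlgn2.c, named for an adhesion protein of inhibitory synapses, at 0.34 (SE 0.29). At excitatory and cholinergic synapse loci 6 of 15 were higher and 9 lower. Dlg2.d and Dlg4.b, named for postsynaptic scaffolds, were at -0.06 (SE 0.11) and -0.04 (SE 0.14).

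At release machinery loci 8 of 13 estimates were higher and 5 lower. Syn1.b, named for the vesicle protein synapsin, had 899, 1079 and 1176 against 658, 747 and 997 counts (-0.37, SE 0.15, edgeR adjusted p = 0.832). The list of other channels and receptors also held Ank2 and Ank3, which are no channel genes. On it 9 of 14 estimates were higher and 5 lower, with Ank2.c (-0.11, SE 0.09) and Lrrc8a.b (0.23, SE 0.14) the highest in CPM.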

How the data were processed

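Of 12 samples, the 6 lncRNA libraries (3 normal, 3 ARM) were used. Per the file headers, the deposited values are raw counts of each transcript beside its length in bases and its position; 6 FPKM columns were not used. Per the submitters' processing notes, the tools were Cuffdiff, Cufflinks 2.1.1, TopHat2 2.0.9 and CASAVA 1.8 (roles not stated) and the build was mm10, of mouse, although the identifiers are of rat. The sources used here name no counting tool, strand or coordinate build, so exon positions were not analysed here. Headings of the normal columns match that group and not single samples, so their numbers are names.

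edgeR 4.0.16 (R 4.3.3; TMM, filterByExpr, quasi-likelihood fit on phenotype, Benjamini-Hochberg, threshold 0.05) was run on the whole table and checked on simulated data. CPM are counts over library totals, given as mean ± SD. Alternatives were DESeq2 1.42.0, limma-voom (limma 3.58.1), other scalings and filters, a threshold of 0.1 and each library left out. The share without Scn3b.c was added after seeing the data. Floors cover counting error only, while the 95% intervals of fold changes also hold the spread between libraries.

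Members, partner lists and marker lists were chosen with earlier results of these data known. Named were the 8 higher and 8 lower members of smallest unadjusted p (their higher group averaging 10 counts or more), the 12 most abundant per kilobase, the most abundant of each family, and the 2 most abundant of each partner list. Other transcripts of named loci, and further members given to describe a family, were chosen after their values were seen. A few items taken by this rule are not reported here.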

Additional observations from a re-analysis of the deposited data

How the results depend on the processing

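No member passed with other scalings, filters, tests or the threshold of 0.1. Leaving out each library gave 0 to 1 called members: Kcnk1.b without normal replicate 1 (log2 fold change 6.85), Scn3b.c without ARM replicate 1 and Cacna1g.h without ARM replicate 3 (-6.14). Called loci ranged from 0 to 1, and called transcripts of the whole table from 19 to 29, against 16. The table had 9 calls with no filter, 8 with the 10 CPM filter and 76 with DESeq2. The members' median log2 fold change was 0.0071 to 0.12 with a library left out and 0.04 to 0.10 otherwise. Without the most abundant member, the share of counts was 0.111% in normal and 0.133% in ARM libraries.

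The sign of 8 named estimates turned. Clcn3.d was at 0.022 with total-count scaling, 0.048 with limma-voom and -0.19 to 0.34 with a library left out. Scn3b.c was at -1.10 with limma-voom and -3.55 to 3.06 with a library left out. The lowest and highest values with a library left out were -0.078 to 0.26 for Hcn3.c, -0.15 to 0.064 for Gria2.d, -0.041 to 0.14 for Gria2.c, -0.57 to 0.0052 for Kcnip3.c, -0.046 to 0.23 for Cacna1e.b and -1.23 to 0.47 for Trpv2.d. The cause was not tested. No paired analysis was possible because the labels give no pairing of normal with ARM samples. Depth limits the 30 untested members. For 17 tested ones the interval reaches beyond a 2-fold change, through low counts or through spread between libraries, as for Scn3b.c.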
